A study of Homo sapiens with 6 samples.

Results

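The enzymes that make serine and pass its carbon through folate were examined in MiaPaCa-2, an established human pancreatic carcinoma line, after glucose withdrawal. The set holds 10 genes, chosen by their symbols among the 60668 genes of the deposited table, and each of the 10 was found once and passed the filter on low values. Of these, 3 encode the serine synthesis enzymes (PHGDH, PSAT1 and PSPH), 2 encode cytosolic folate enzymes (SHMT1 and MTHFD1) and 5 encode mitochondrial folate enzymes (SHMT2, MTHFD2, MTHFD2L, MTHFD1L and ALDH1L2).

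Cells were kept for 48 h in medium with 2.5 mM glucose (low glucose, n = 3) or in standard medium with 25 mM glucose (control, n = 3), and total RNA was sequenced from directional libraries. The series describes the replicates as biologically independent. The treatment text of the labels gives 2.5 mM for all 6 samples, and the control concentration is taken from the series' design text and the methods. For these cultures the methods list glutamine and an anti-mycoplasma agent in the standard medium but neither among the additions to the glucose-free base of the low-glucose medium, although glutamine is named for the low-glucose medium of the flux experiments. The amino acids of that base, methionine and cystine included, are not given in the sources used here. Lower glucose and any difference in these components cannot be told apart, also for the amino acid response, methionine and transsulfuration genes. Libraries are named here by their column names, av1 to av3 for control and av7 to av9 for low glucose. The labels tie av7 and av8 to low glucose replicates 1 and 2, and the other 4 were grouped by the run of the names, which no label states, so every comparison rests on that grouping. Control libraries held 9741183 to 10190154 reads on genes, and low-glucose libraries 10595408 to 13733477. The filament genes KRT8, KRT18, KRT19 and VIM, markers of this line, summed to 110327 to 154762 reads per library, and the keratins fell (log2 fold changes of -1.01, -0.74 and -0.83) while VIM rose (0.42). CDKN2A and MTAP, known to be deleted in the line, had 0 reads in all 6 libraries. The 8 markers of leukocytes, endothelium, fibroblasts, acinar and beta cells summed to between 4 and 14 reads per library, and 5 of the 8 had none.

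Serine is made from the glycolytic intermediate phosphoglycerate in a cytosolic pathway of sequential reactions: PHGDH oxidizes it, PSAT1 transfers an amino group from glutamate and releases α-ketoglutarate, and PSPH removes the phosphate. SHMT enzymes then move a carbon from serine to tetrahydrofolate and leave glycine. In the mitochondrial arm the carbon is oxidized by MTHFD2 or MTHFD2L to formyl-tetrahydrofolate, which MTHFD1L turns into formate for export, or which ALDH1L2 oxidizes to CO2 with production of NADPH. In the cytosol the trifunctional MTHFD1 carries out the corresponding steps and supplies purine and thymidylate synthesis. Several of these genes are known targets of ATF4, the transcription factor of the integrated stress response.

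The serine synthesis mRNAs rose together in low glucose, the mitochondrial folate mRNAs split, and neither cytosolic folate mRNA rose. At a limma adjusted p under 0.05, 6 of the 10 enzymes were higher in low glucose (PHGDH, PSAT1, PSPH, SHMT2, MTHFD2 and ALDH1L2) and 2 were lower (MTHFD1 and MTHFD2L). SHMT1 and MTHFD1L did not pass. Over all 21101 genes tested, 30.9% passed, 14.7% higher and 16.2% lower. The normalized counts of the 2 groups did not overlap for any of the 10, with 7 higher and 3 lower in low glucose, against 22.1% and 21.8% of all genes tested (43.9% in either direction). The median log2 fold change was 0.50 for the 10 enzymes and 0.05 for all genes tested.

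**Figure D1:**
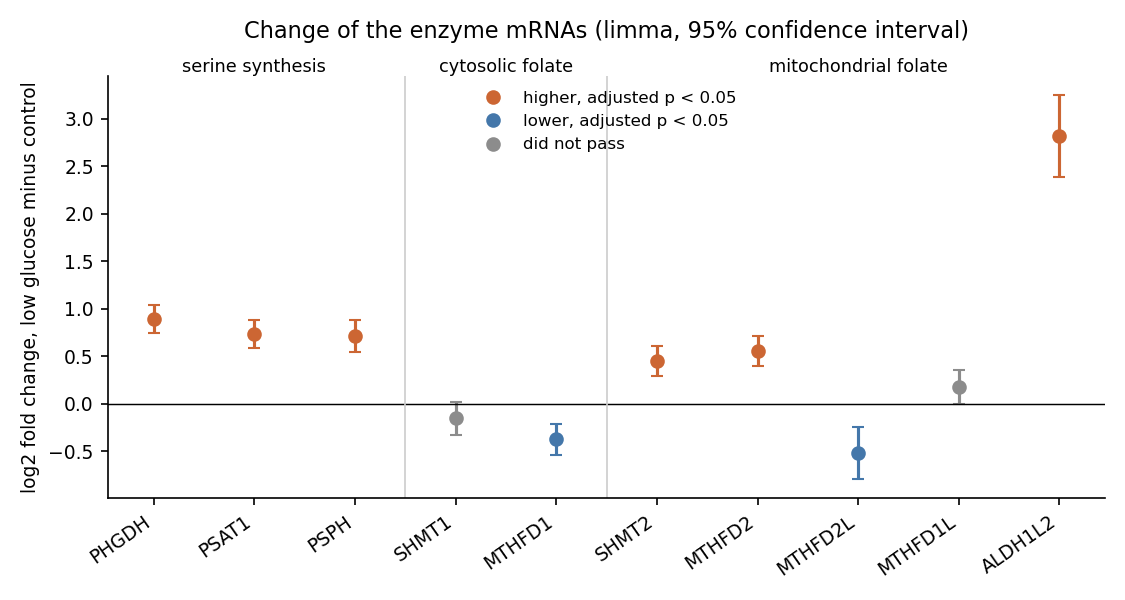
Log2 fold change (low glucose minus control, vertical axis) of each enzyme mRNA from limma with its 95% confidence interval, grouped by role and coloured by call. The 3 serine synthesis mRNAs lie between 0.71 and 0.90, both cytosolic folate mRNAs lie below 0, and the mitochondrial ones run from -0.52 for MTHFD2L to 2.82 for ALDH1L2.

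PHGDH (ENSG00000092621.12, chromosome 1 of hg38, 119648411 to 119744218, plus strand) catalyses the committed step of serine synthesis. Its normalized counts, that is reads divided by the authors' size factor, were 1816, 1799 and 1809 in control and 3322, 3395 and 3381 in low glucose. The groups were far apart, and the control libraries lay within an SD of 8.62. The mean was 1.86-fold higher (log2 fold change 0.90, standard error 0.0690, limma adjusted p = 4.78e-07), and 2507 of the genes tested rose more.

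PSAT1 (ENSG00000135069.14, chromosome 9, 78297125 to 78330093, plus strand), the aminotransferase, had 3234, 3125 and 3251 normalized counts in control and 5443, 5223 and 5318 in low glucose. PSPH (ENSG00000146733.14, chromosome 7, 56011051 to 56051604, minus strand), the phosphatase, had 852, 778 and 866 in control and 1404, 1359 and 1321 in low glucose. Every low-glucose library exceeded every control library for both. The log2 fold changes were 0.73 for PSAT1 (standard error 0.0705, limma adjusted p = 3.46e-06) and 0.71 for PSPH (standard error 0.0778, limma adjusted p = 1.08e-05). Thus 3 of 3 serine synthesis mRNAs rose, by 1.64-fold to 1.86-fold in their means, and each passed in 15 of 15 alternative fits.

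SHMT2 (ENSG00000182199.11, chromosome 12, 57229573 to 57234935, plus strand) is the mitochondrial serine hydroxymethyltransferase. It had 2272, 2339.5 and 2377 normalized counts in control and 3397, 3038 and 3124 in low glucose. The groups did not overlap, and the mean was 1.37-fold higher (log2 fold change 0.45, standard error 0.0740, limma adjusted p = 0.000344). The lncRNA ENSG00000276727 on the opposite strand, which overlaps 352 bp of its exons, did not pass (0.15, limma adjusted p = 0.307). It reached 9.75% of the count of SHMT2. Such percentages, here and below, compare means over all 6 libraries. NDUFA4L2, which shares 33 bp on that strand, reached 0.192% and did not pass (1.20, limma adjusted p = 0.126).

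SHMT1 (ENSG00000176974.20, chromosome 17, 18327860 to 18363563, minus strand), the cytosolic counterpart, had 699.5, 673 and 739 normalized counts in control and 600.2, 635 and 664 in low glucose. The low-glucose libraries all lay below the control libraries, the nearest values being 664 and 673. The log2 fold change of -0.15 (95% confidence interval -0.33 to 0.02, limma adjusted p = 0.182) did not pass. SMCR8, which shares 197 bp of exon on the opposite strand, had a level similar to that of SHMT1 (111% of it). Its log2 fold change of -0.27 did not pass either (limma adjusted p = 0.0631). MIR6778, which shares 73 bp on the same strand, had 0 reads in all 6 libraries.

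MTHFD2 (ENSG00000065911.12, chromosome 2, 74186172 to 74217565, plus strand), the mitochondrial dehydrogenase and cyclohydrolase, had 4021, 3660.3 and 3817 normalized counts in control. It had 5812, 5490.4 and 5549 in low glucose, well above the control range. The mean was 1.47-fold higher (log2 fold change 0.55, standard error 0.0739, limma adjusted p = 6.32e-05). SLC4A5, which overlaps 1324 bp of MTHFD2 exon from the opposite strand, reached 3.38% of the count of MTHFD2 and rose by 1.02 (limma adjusted p = 0.00018). A second opposite-strand gene, ENSG00000264324, which shares 295 bp, reached 39.0% and rose by 0.65 (limma adjusted p = 9.01e-05).

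MTHFD2L (ENSG00000163738.18, chromosome 4, 74114174 to 74303099, plus strand) encodes a mitochondrial enzyme with the same activities as MTHFD2. Its normalized counts went the other way, with 355, 266 and 368 in control and 243, 215 and 226 in low glucose. Library av2 was the lowest control library and still lay above every low-glucose library. The mean fell to 0.692 of control (log2 fold change -0.52, standard error 0.126, limma adjusted p = 0.00607). This call was lost without the trend in the variance model (limma adjusted p = 0.0714). The lncRNA ENSG00000269559, which overlaps 174 bp of its exons on the opposite strand at 21.0% of its count, fell by 0.70 (limma adjusted p = 0.0272).

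MTHFD1L (ENSG00000120254.15, chromosome 6, 150865679 to 151101887, plus strand), the mitochondrial formyl-tetrahydrofolate synthetase, had 1131, 1254 and 1028 normalized counts in control and 1276, 1284 and 1282 in low glucose. The low-glucose libraries agreed within an SD of 4.51, whereas the control libraries spread with an SD of 113. The log2 fold change was 0.18 (95% confidence interval -0.0039 to 0.35, limma adjusted p = 0.130) and did not pass with all libraries. It passed in 3 of 15 alternative fits. These were the fit without av2, the highest control library (0.25, limma adjusted p = 0.00548), and those with scaling by library size (0.0239) or quantile normalization (0.00321). Without av3, the lowest control library, the log2 fold change was 0.10 (limma adjusted p = 0.320).

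ALDH1L2 (ENSG00000136010.14, chromosome 12, 105019784 to 105107643, minus strand), the mitochondrial formyl-tetrahydrofolate dehydrogenase, showed the largest rise of the 10. It had 21, 16 and 26 reads in control and 179, 185 and 192 in low glucose, or 23.5, 17.8 and 27.8 against 172, 183 and 145 normalized counts. The groups were separated by a wide gap at this low depth. The mean was 7.23-fold higher (log2 fold change 2.82, standard error 0.202, limma adjusted p = 2.57e-07). Only 48 of the 21101 genes tested had a larger log2 fold change. The neighbouring genes WASHC4 and NOPCHAP1 share 131 and 145 bp of exon with it on the opposite strand. Over all 6 libraries their means were 519.9% and 203% of its mean. In control they held 378 to 400 and 164 to 199 reads, against 16 to 26 for ALDH1L2. In low glucose they held 550 to 752 and 185 to 244 reads, against 179 to 192. How far reads on these shared exons entered the ALDH1L2 values was not tested. WASHC4 rose by 0.36 (limma adjusted p = 0.00414) and NOPCHAP1 did not pass (-0.11, limma adjusted p = 0.508).

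MTHFD1 (ENSG00000100714.17, chromosome 14, 64388031 to 64463457, plus strand), the cytosolic trifunctional enzyme, had 3011, 3113 and 2791 normalized counts in control and 2196, 2329 and 2356 in low glucose. The groups did not overlap, and the mean fell to 0.772 of control (log2 fold change -0.37, standard error 0.0749, limma adjusted p = 0.00164). After quantile normalization its limma adjusted p was 0.0523. The lncRNA ENSG00000272909 overlaps 1556 bp of its exons on the opposite strand at 14.5% of its count and fell by 0.30 (limma adjusted p = 0.022). ZBTB25, which shares 178 bp on that strand at 17.3%, did not pass (-0.05, limma adjusted p = 0.718). Nor did the lncRNA ENSG00000258824, with 186 bp at 3.95% (-0.43, limma adjusted p = 0.0568). In no case is it known whether reads on shared exons were counted by strand. Annotated pseudogenes named after the enzymes had at most 4 reads in any library.

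**Figure D2:**
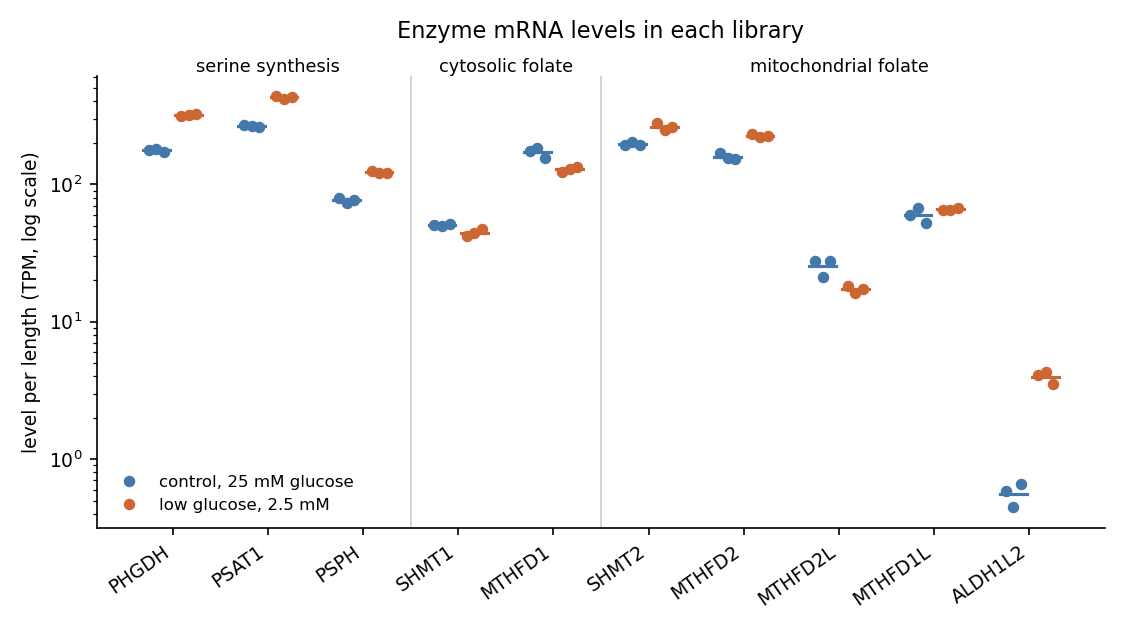
Level per length of each enzyme mRNA in TPM (log axis) in each of the 3 control and 3 low-glucose libraries, with a bar at the group mean. PSAT1 lies at the top in both conditions, ALDH1L2 lies far below the others, and the low-glucose points sit above control for the serine synthesis genes and below it for SHMT1, MTHFD1 and MTHFD2L.

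Levels were compared between genes per length, in TPM with the length of the canonical transcript. In control, PSAT1 stood first at 264 ± 5.18 TPM (SD, n = 3), followed by SHMT2 at 196 ± 4.57, PHGDH at 176 ± 4.95, MTHFD1 at 171 ± 14.3 and MTHFD2 at 158 ± 8.35. PHGDH and MTHFD1, and MTHFD1 and MTHFD2, were neighbours whose library ranges overlapped. PSPH (76.5 ± 3.06), MTHFD1L (60.0 ± 7.57), SHMT1 (50.6 ± 0.984), MTHFD2L (25.4 ± 3.80) and ALDH1L2 (0.562 ± 0.107) followed. In low glucose the order was PSAT1 at 428 ± 10.9 TPM, PHGDH at 319.8 ± 5.15, SHMT2 at 262 ± 15.7 and MTHFD2 at 226 ± 7.24, with MTHFD1 next at 129 ± 5.47. Its range then overlapped that of PSPH (122 ± 3.09). MTHFD1L, SHMT1, MTHFD2L and ALDH1L2 kept ranks 7 to 10, the last at 3.98 ± 0.417 TPM. This order depended on the length used. With the summed length of all annotated exons, MTHFD1 (17357 bp in place of 3154 bp) ranked 7 in both conditions, PHGDH ranked 6 in control at 59.3 TPM and 5 in low glucose at 106 TPM, and PSPH ranked 4 and 3. PSAT1 ranked 1 with either length in both conditions.

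The TPM of the 2 cytosolic and 5 mitochondrial folate enzymes of the set were summed in each library. The mitochondrial part of this sum was 66.5%, 65.6% and 67.3% in control and 78.4%, 76.1% and 76.0% in low glucose, with no overlap of the groups. Folate genes outside the set, such as TYMS, GART and ATIC, were not in the sum. With the length of all exons the control libraries gave 80.2% to 80.5% and the low-glucose libraries 86.4% to 88.0%. On the log2 scale of the normalized counts, the mean change of the 5 mitochondrial mRNAs exceeded that of the 2 cytosolic ones by 1.08, 0.94 and 0.86 in av7, av8 and av9, a mean of 0.96 ± 0.116 (SD, n = 3), against an SD of 0.0978 among the control libraries. Without ALDH1L2, a choice made after the data were seen, the mean difference was 0.43 ± 0.110 (SD, n = 3). The location of an enzyme did not by itself give its direction, since the mitochondrial MTHFD2L fell and the cytosolic serine synthesis enzymes rose. These sums over chosen genes were not tested.

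Ratios of enzyme mRNAs within a library were compared for 5 pairs. Apart from the pseudocount of 1, they do not depend on the scale factor of the library. The log2 ratio of SHMT2 to SHMT1 was 1.70, 1.80 and 1.68 in control and 2.50, 2.26 and 2.23 in low glucose, a difference of 0.60. Library av7 carried the highest ratio, and the groups did not overlap. Per length, SHMT2 mRNA was 3.88-fold above SHMT1 in control and 5.89-fold above it in low glucose.

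The log2 ratio of MTHFD2 to MTHFD1 was 0.42, 0.23 and 0.45 in control and 1.40, 1.24 and 1.24 in low glucose, a difference of 0.92. Per length, the mitochondrial dehydrogenase was at 0.924 of the level of MTHFD1 in control and at 1.75 times it in low glucose. The control direction turned with the length of all exons, which gave MTHFD2 101 TPM against 51.6 for MTHFD1 in control and 142 against 38.2 in low glucose. The log2 ratio of MTHFD1L to MTHFD1, the formyl-tetrahydrofolate synthetases, was 0.55 higher, with -1.41, -1.31 and -1.44 in control and -0.78, -0.86 and -0.88 in low glucose. For this pair the gene with the smaller change of its own was MTHFD1L.

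Within mitochondria, the log2 ratio of MTHFD2 to MTHFD2L was 3.50, 3.78 and 3.37 in control and 4.57, 4.67 and 4.61 in low glucose, a difference of 1.07, so that the opposite changes of the related dehydrogenases added up. The log2 ratio of ALDH1L2 to MTHFD1L, which act on the same folate, was -5.53, -6.06 and -5.16 in control and -2.88, -2.81 and -3.13 in low glucose, a difference of 2.64. Even in low glucose, ALDH1L2 mRNA was at 0.0606 of the level of MTHFD1L per length. Each of the 5 ratios separated the groups completely. Each had an exact permutation p of 0.1 (two-sided), also 0.1 after Benjamini-Hochberg adjustment over the 5. This is the smallest p that 3 libraries against 3 allow. For every pair but ALDH1L2 to MTHFD1L, the first gene was higher and the second lower in all low-glucose libraries. The separation of those ratios, and so their p, followed from that of the single genes and adds nothing to it.

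**Figure D3:**
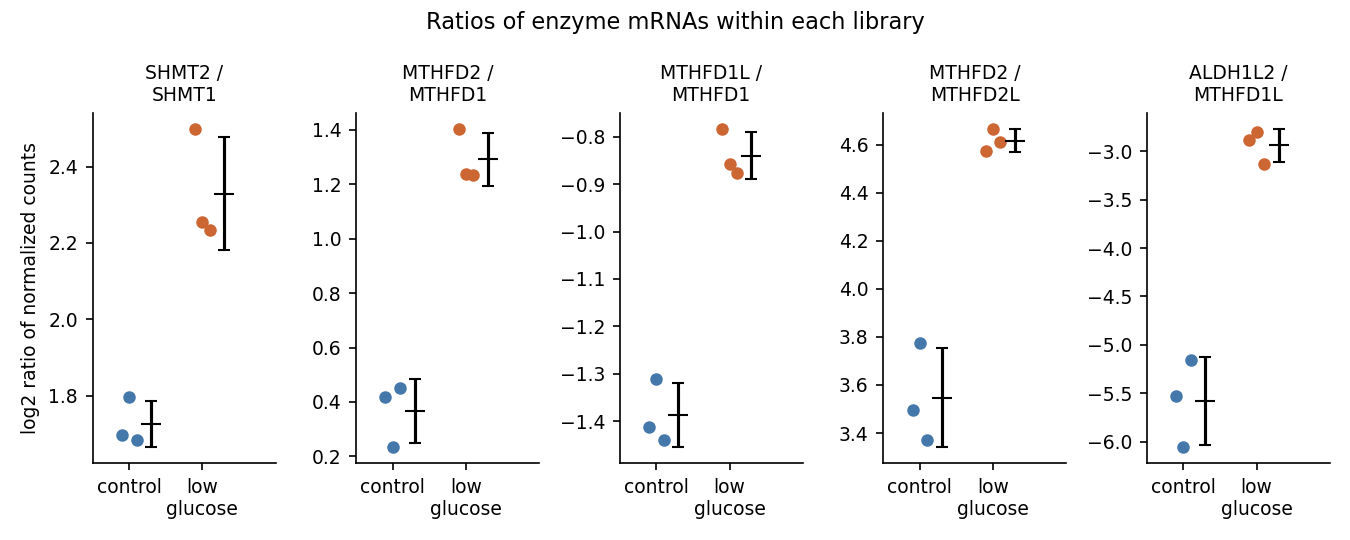
Log2 ratio of the normalized counts of 2 enzyme mRNAs within each library, 1 panel a pair with its own vertical axis, with points for the 3 control and 3 low-glucose libraries and the mean with its SD beside them. All 5 ratios were higher in every low-glucose library, by 0.55 for MTHFD1L to MTHFD1 up to 2.64 for ALDH1L2 to MTHFD1L.

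Promoter windows of 300 bases (250 before to 50 after an annotated start, RefSeq, GRCh38.p14) were found for 7 of the 10 genes, with more than 1 start for MTHFD1L and MTHFD2L. PSPH, SHMT2 and ALDH1L2 had none. They were searched on both strands for the C/EBP-ATF composite element TGATGNAA, through which ATF4 acts, for the cAMP response element TGACGTCA and for the E-box CACGTG, which MYC and related factors bind. The matches belonged to 2 members, neither of which rose past the threshold. Every match found is shown, with the matched bases in capitals, 5′ to 3′ on the plus strand.
MTHFD1L, TGATGNAA, chr6:150866346-150866375: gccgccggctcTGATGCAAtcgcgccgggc
MTHFD1L, CACGTG, chr6:150866321-150866350: acgcccggctcCACGTGcgcagccggccgc
MTHFD1, CACGTG, chr14:64388327-64388356: cagtccctaagCACGTGggttgggttgtcc
The MTHFD1L element lies 129 bases before, 90 bases before or 24 bases after a start, depending on which annotated start is taken. Its letters do not overlap the E-box nearby. The window of a further MTHFD1L start, chr6:151006758-151007057, held no match. Thus 1 of 7 members matched TGATGNAA, against 4.46% of the 27305 genes with a window, 2 of 7 matched CACGTG, against 8.77%, and none matched TGACGTCA, against 2.25%. Of the 14 ATF4 response genes below that have a window, 4 matched TGATGNAA. Such a match is a run of letters in a short window and not a measured site.

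Among 16 further genes of the folate cycle, 15 were tested, of which 1 rose and 3 fell, with a median log2 fold change of -0.05. Over all genes tested, 14.7% rose and 16.2% fell. TYMS, thymidylate synthase, fell by 0.63 on the log2 scale (limma adjusted p = 7.75e-05). The reduced folate carrier SLC19A1 fell by 0.37 (limma adjusted p = 0.00334). This call passed in 13 of 15 alternative fits. It was lost after quantile normalization (-0.19, limma adjusted p = 0.07155) and without the variance trend (limma adjusted p = 0.0569). The formyl-tetrahydrofolate users of purine synthesis, GART (-0.10) and ATIC (0.10), did not pass. ALDH1L1, the cytosolic counterpart of ALDH1L2, had at most 3 reads in a control library and 5 to 13 in the low-glucose libraries, a difference that did not pass (limma adjusted p = 0.0572).

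Of 18 genes that supply, move or use serine and glycine, 17 were tested, and SPTLC3 had no read. Of the 17, 6 rose and 2 fell, beside 14.7% and 16.2% of all genes tested, with a median of 0.27. The neutral amino acid transporter SLC1A4, which carries serine, rose by 1.60 (standard error 0.127, limma adjusted p = 6.16e-07). SFXN1, the main mitochondrial serine carrier, fell by 0.83 (standard error 0.0777, limma adjusted p = 2.83e-06), whereas its paralogs SFXN2 (0.70) and SFXN3 (0.76), at lower counts, rose. Control libraries held 1541 to 1704 reads of SFXN1 and 57 to 76 of SFXN2, and low-glucose libraries 995 to 1336 and 105 to 180. SDSL, a serine dehydratase-like gene, rose by 0.90 and PTDSS1, a phosphatidylserine synthase, fell by 0.43. Calls in this list were not equally stable. SLC1A4, SFXN1, SFXN2, SDSL and PTDSS1 passed in all 15 alternative fits, whereas SFXN3 passed in 8 and was lost without av3, av7, av8 or av9 (limma adjusted p of 0.0765 to 0.1397) and with DESeq2 (adjusted p = 0.116). The glycine cleavage genes GLDC, AMT, GCSH and DLD did not pass.

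Of 15 genes of the methionine cycle and transsulfuration, 12 were tested. Of the 12, 5 rose and 4 fell, beside 14.7% and 16.2% of all genes tested, with a median of 0.02. The transsulfuration genes rose, CTH by 1.87 (standard error 0.0981, limma adjusted p = 1.51e-08) and CBS, which joins serine to homocysteine, by 0.73 (limma adjusted p = 0.000146). MAT2A, the S-adenosylmethionine synthetase, rose by 0.51 (limma adjusted p = 0.00671) and AHCYL2 by 0.52 (limma adjusted p = 0.00651). These 2 calls were lost without the variance trend (limma adjusted p = 0.1128 and 0.0683). The rise of MAT2A was 0.33 without av2 and 0.66 without av3. The genes that remethylate homocysteine with folate carbon fell, MTR by 0.42 (limma adjusted p = 0.00221) and its reductase MTRR by 0.49 (limma adjusted p = 0.000558), as did AHCY (-0.28) and AHCYL1 (-0.35). Both of the latter were lost without av7 (limma adjusted p = 0.0959 and 0.0890) or av8 (0.0824 and 0.0866), and AHCYL1 also without av9 (0.0724). The fifth rise, BHMT, rested on 3 to 6 reads in low glucose and 0 in control, so it passed the filter only through low glucose. Were 3 reads set in each control library, its mean would be 1.15-fold higher. The call was lost without av8 (limma adjusted p = 0.0563) or av9 (0.0699). BHMT had no adjusted p with DESeq2 and was not tested by edgeR. BHMT2 and MTAP had no read.

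**Figure D4:**
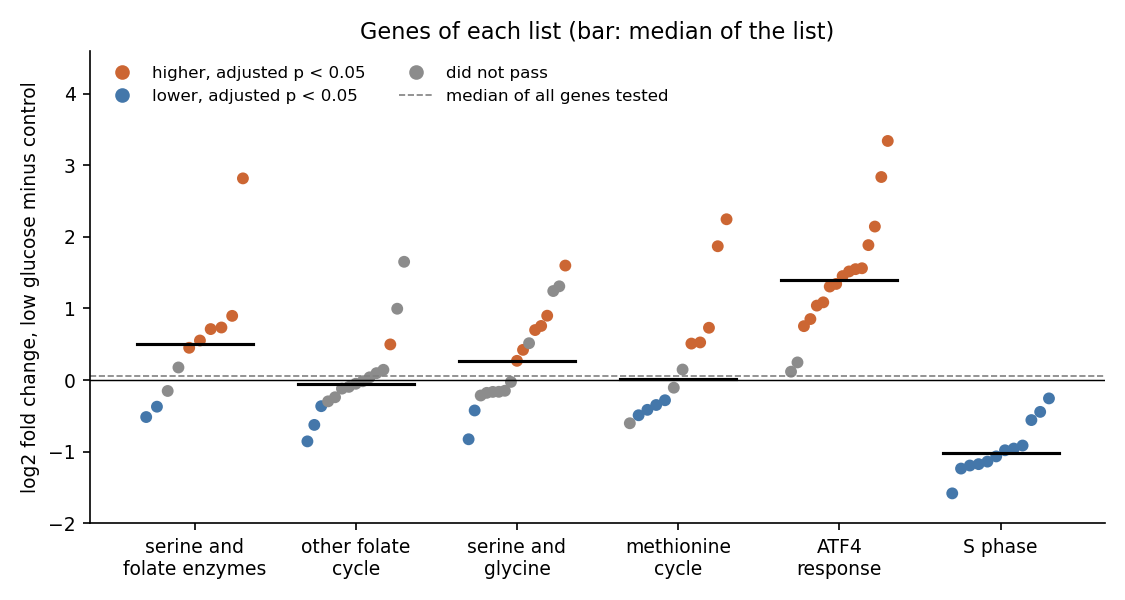
Log2 fold change (low glucose minus control, vertical axis) of each tested gene in 6 lists, coloured by call, with a bar at the median of the list and a dashed line at the median of all genes tested (0.05). The ATF4 response genes lie above 0 with a median of 1.40, and the serine and folate enzymes lie on both sides. The S phase list, which includes the proliferation marker MKI67, lies below 0 with a median of -1.02.

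Markers of other programmes also differed between the conditions. Of 16 ATF4 response genes outside the pathway, 14 rose and none fell (median 1.40), among them NUPR1 (3.34), DDIT3 (2.84), CHAC1 (2.14) and DDIT4 (1.88), and they summed to normalized counts of 25399 to 27709.9 in the control and 44927 to 48116 in the low-glucose libraries. The rise of ALDH1L2 (2.82) lay within the range of this list, and those of PHGDH (0.90), PSAT1 (0.73) and PSPH (0.71) were below its median. Of 12 genes of S phase and proliferation, 12 fell (median -1.02). Among them were MCM4 (-1.24), MCM5 (-1.19), MCM2 (-1.18) and MKI67 (-1.58), a proliferation marker not limited to S phase. The 12 summed to normalized counts of 36081 to 40655 in the control and 17600.5 to 18690.3 in the low-glucose libraries. MTHFD1 (-0.37), MTHFD2L (-0.52), TYMS (-0.63) and SFXN1 (-0.83) fell by less than the median of that list. The part of either programme in the changes of the enzymes was not tested, and in bulk RNA fewer cells in a state and less RNA per cell cannot be told apart.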

How the data were processed

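MiaPaCa-2 RNA-seq libraries (3 control, 3 low glucose) were analysed from 1 deposited table. The authors trimmed the reads with Trim Galore, mapped them to hg38 with STAR 2.7.0e and compared the conditions with DESeq2. Their software list also names RSEM, which estimates counts, without giving the step, and the strand setting and annotation are not given in the sources used here, so the reads recovered below may be rounded estimates. The deposited values are a signal with 1 scale per library, the read count of each gene after division by the size factor that the authors applied. Every value was a whole multiple of the value of 1 read within a tolerance of 0.01 (100% of values), so reads were recovered, and size factors recomputed over 17906 genes matched the deposited scaling.

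Of the 6 columns, av7 and av8 are tied by the labels to numbered low-glucose samples. The remaining 4 were assigned by their place in 2 runs of 3 names and have no replicate number.

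A pseudocount of 1 was added to the deposited values, log2 was taken, and the 21101 genes whose mean was at least 1 were tested with limma 3.58.1 in R 4.3.3 (lmFit and eBayes with a trend, two-sided, Benjamini-Hochberg adjustment over all genes tested, threshold 0.05). Ratios of 2 mRNAs within a library were compared with exact permutation tests in scipy 1.17.1, whose smallest p with 3 against 3 libraries is 0.1. TPM values (a level per transcript length, scaled to the same sum in each library) were computed from the normalized counts and the length of the Ensembl canonical transcript in Gencode v44. Alternatives were other scalings, filters, pseudocounts and variance models, edgeR 4.0.16 and DESeq2 1.42.0 on the recovered reads, and each library left out in turn. The scripts were tested on simulated data. The enzymes, gene lists, ratios and motifs were chosen with earlier results of these data known. The named genes are the 10 enzymes, up to 4 that rose and up to 4 that fell most in each list among genes that passed and whose mean was at least 20, list genes with no read, markers of the line, and genes sharing exon sequence with an enzyme. Genes with no such rank were named only where a count rested on them, after their values were seen. Promoter sequences are from RefSeq (GRCh38.p14). Values of 2 genes of the folate cycle list are not reported here.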

Additional observations from a re-analysis of the deposited data

How the results depend on the processing

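No paired analysis was possible because the control columns cannot be tied to numbered samples. The alternatives were chosen with earlier results known, and the compartment difference without ALDH1L2 only after the data were seen. PHGDH, PSAT1, PSPH, SHMT2, MTHFD2 and ALDH1L2 passed in all 15 alternative fits, with a largest limma adjusted p of 0.0264 (SHMT2 without the variance trend), SHMT1 passed in 0 of 15 and no enzyme changed direction. The 2 enzymes that fell became 1 without the variance trend (MTHFD2L lost, 0.0714) and 1 after quantile normalization (MTHFD1 lost, 0.0523). Leaving out 1 library gave 6 to 7 enzymes that rose and 2 that fell. Over all genes, the control libraries differed more from each other than the low-glucose libraries did. The mean chi-square per gene between the reads of 2 libraries was 4.63 to 18.9 within control, largest for av2 and av3. Within low glucose it was 1.90 to 2.89. Without av2, 7251 genes passed and without av3 7224, against 6528 with all libraries and 4319 to 5160 without another library. The compartment difference of 0.96 was 0.43 without ALDH1L2. The 5 ratios kept their direction under every scaling, pseudocount and library left out. Their size changed with quantile normalization, which is not a single factor per library. The difference was then 0.70 for SHMT2 to SHMT1, 1.27 for MTHFD2 to MTHFD2L and 2.30 for ALDH1L2 to MTHFD1L. For the folate cycle, 2 genes rose with edgeR, a mean of at least 10 or quantile normalization, 3 with library size scaling, 0 without the variance trend, and 1 to 2 with a library left out. In that list 2 genes fell after quantile normalization or without the variance trend, against 3 in the main fit. For the methionine cycle, 2 fell with library size scaling, quantile normalization or no variance trend, 3 rose without that trend, and leaving out 1 library gave 2 to 4 that fell. For serine and glycine, leaving out 1 library gave 4 to 7 that rose and 2 to 4 that fell, and 4 rose with DESeq2. Library size scaling made 59.8% of all calls higher, against 47.7%. With 16 to 26 reads in control, ALDH1L2 is the enzyme whose fold change is least precise.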
